A study of Mus musculus with 6 samples.

Results

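Selenoproteins are proteins that carry selenocysteine (Sec), the amino acid that holds selenium in place of the sulfur of cysteine. The 31 genes described here are 24 genes of the mouse selenoproteins and 7 genes without Sec that belong to its synthesis, insertion or recycling, with *Sephs1* counted among them as the relative of a synthesis gene. They were chosen by name, from what the genes are known to do, with earlier results of these data known. They were found by their gene identifiers in the table of 53715 genes. The identifier of each of the 31 genes was present, and 27 of them had enough counts to be tested.

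RNA-Seq was performed on the cerebellum of *Slc39a8*-NSKO mice, in which *Slc39a8*, the gene of the metal transporter SLC39A8 (ZIP8), was deleted in neurons by a Cre recombinase driven by the synapsin promoter, and on the cerebellum of control mice. There were 3 control mice and 3 *Slc39a8*-NSKO mice, each a male that was 4 weeks old, of a strain labelled C57BL/6 and given as C57BL/6J in the methods. The controls are labelled WT. The study's results name *Slc39a8* fl/fl mice as the controls of this cross, while its methods call the histology controls wild-type. Both genotypes otherwise shared strain, sex and age. Glia, vessels and other cells that do not express this Cre kept *Slc39a8*, so the whole cerebellum of a knockout mouse still held cells with an intact gene.

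SLC39A8 carries manganese, zinc and other divalent metals into cells, and it has also been described as a transporter of selenite together with zinc. Sec is read from a UGA codon, which elsewhere ends translation. A stem-loop in the 3′ untranslated region of the mRNA, the SECIS element, recruits SECIS-binding protein 2 and a dedicated elongation factor that bring the Sec tRNA to this codon. When selenium is short, the mRNAs of some selenoproteins, those of *Gpx1*, *Selenow* and *Selenoh* among them, are known to be lost through nonsense-mediated decay, while those of essential selenoproteins such as *Gpx4* are kept. In the brain, selenium arrives largely as selenoprotein P, which neurons take up through the apolipoprotein E receptor 2, the product of *Lrp8*.

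The annotation (GENCODE, mouse build GRCm38/mm10) marked 34 Sec codons in the 24 selenoprotein genes, on 1 transcript chosen per gene. All 34 were TGA in the DNA. The coding sequences around the first Sec codon of 10 genes are shown because these genes are the most abundant members, are known to respond to selenium, or show the different places a Sec codon can take. The capitals mark the Sec codon, which stands in frame with 30 bases before it and up to 30 bases after it, and each sequence is written 5′ to 3′ on the strand of the gene. The codons of *Gpx1* at chr9:108339451-108339453 (+), *Gpx4* at chr10:80054737-80054739 (+), *Selenow* at chr7:15920464-15920466 (−), *Selenom* at chr11:3516273-3516275 (+), *Selenot* at chr3:58585238-58585240 (+), *Selenoh* at chr2:84670381-84670383 (−), *Selenop* at chr15:3274848-3274850 (+), *Dio2* at chr12:90729823-90729825 (−), *Selenoo* at chr15:89099975-89099977 (+) and *Txnrd1* at chr10:82896037-82896039 (+) all lie in coding exons.
Gpx1: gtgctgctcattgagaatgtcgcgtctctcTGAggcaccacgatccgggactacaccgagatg
Gpx4: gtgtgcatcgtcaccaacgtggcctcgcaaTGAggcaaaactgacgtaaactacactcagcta
Selenow: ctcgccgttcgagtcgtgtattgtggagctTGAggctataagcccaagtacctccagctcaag
Selenom: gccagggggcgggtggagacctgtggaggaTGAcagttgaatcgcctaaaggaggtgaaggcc
Selenot: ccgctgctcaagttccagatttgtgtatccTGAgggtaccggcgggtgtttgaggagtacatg
Selenoh: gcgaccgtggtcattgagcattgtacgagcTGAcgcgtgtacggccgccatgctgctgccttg
Selenop: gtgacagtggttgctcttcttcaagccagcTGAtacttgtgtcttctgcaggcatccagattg
Dio2: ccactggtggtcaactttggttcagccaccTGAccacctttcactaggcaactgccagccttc
Selenoo: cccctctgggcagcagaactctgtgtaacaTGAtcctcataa
Txnrd1: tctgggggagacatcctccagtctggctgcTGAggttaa

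These windows show the main designs of the family. In *Selenow*, *Selenom*, *Selenot*, *Selenoh* and *Selenoo* a cysteine codon (tgt) stands 3 codons before the Sec codon, the spacing of the redox motif of thioredoxin-like folds. In *Txnrd1*, *Txnrd2* and *Txnrd3* the cysteine codon (tgc in the *Txnrd1* window) stands immediately before the Sec codon, and the stop codon follows after 1 more residue. In *Gpx1* and *Gpx4* no cysteine codon lay within 3 codons before the Sec codon. The base after the first Sec codon, a position known to affect how often the ribosome reads through, was G in 12 of the 24 genes, C in 6, A in 4 and T in 2.

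The Sec codon lay near the start of some selenoproteins and at the very end of others. The first Sec residue came before residue 100 in 13 of the 24 proteins, as in selenoprotein W, where it is residue 13 of 88. It lay within 10 residues of the end in 7 proteins, as in selenoprotein O, where it is residue 665 of 667. Both counts include selenoprotein K, a short protein with Sec at residue 92 of 94. A residue below 100 is therefore not always near the start, as with residue 95 of 116 in the *Msrb1* protein. Selenoprotein P, the plasma and extracellular carrier of selenium, had 10 Sec codons from residue 59 to residue 377 of its 380 residues, and *Dio2* had 2. A stop codon more than about 55 bases upstream of the last exon junction is the textbook position that can expose an mRNA to nonsense-mediated decay. In 14 genes the first Sec codon lay more than 55 bases upstream of that junction, by 105 bases in *Gpx1*, 243 in *Selenow*, 136 in *Selenoh* and 342 in *Gpx4*, and in 10 genes it did not, 2 of which, *Dio3* and *Sephs2*, have a single exon.

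**Figure D1:**
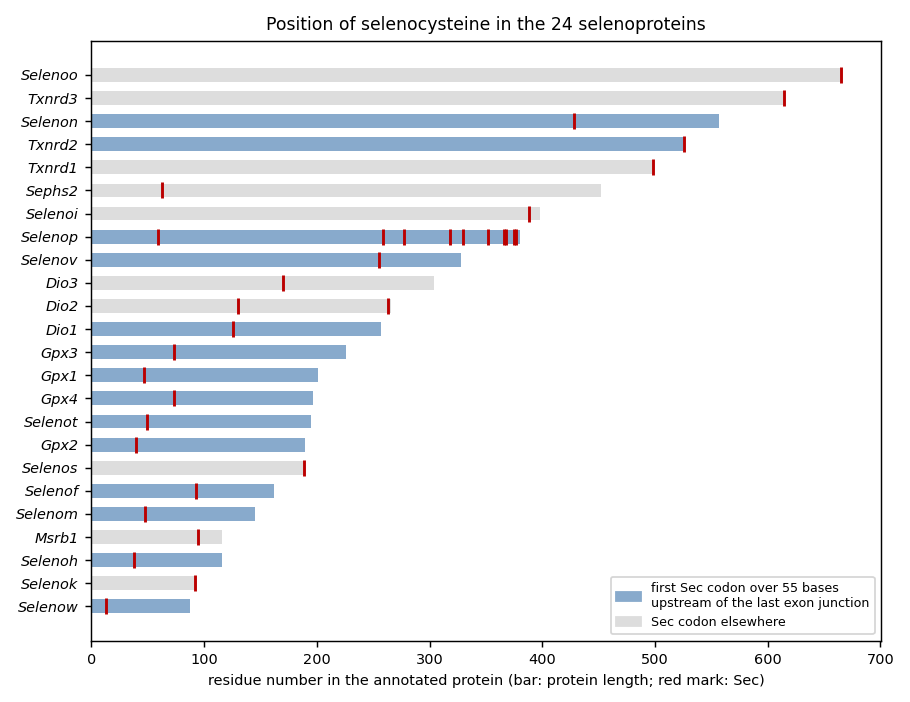
Positions of selenocysteine in the 24 selenoproteins, with the residue number on the x axis, 1 bar per protein that ends at its length, and a red mark for each Sec residue. Bars in blue are the 14 genes whose first Sec codon lay more than 55 bases upstream of the last exon junction. The marks of the thioredoxin reductases sit at the last residue but 1, and the *Selenop* bar carries 10 marks.

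As for the samples themselves, the total count on genes ranged from 14431260 to 20844267 per mouse, and counts were scaled to CPM, the count of a gene relative to the TMM-corrected total of its library. *Slc39a8* had 99, 46 and 44 counts in the control mice and 38, 40 and 41 in the *Slc39a8*-NSKO mice, and the groups did not overlap. At 3.60 ± 1.04 CPM (SD, n = 3) in the controls and 2.04 ± 0.138 CPM (SD, n = 3) in the knockouts the gene was low, and the difference did not pass the threshold (log2 fold change −0.83, edgeR quasi-likelihood test with Benjamini-Hochberg adjustment, adjusted p = 0.534). The labelled tissue fitted its markers, since the 4 Purkinje cell markers summed to between 5490 and 6640 CPM and the 4 granule cell markers to between 2480 and 2640 CPM in the 6 mice. The 4 heart muscle genes that were looked at summed to between 0.707 and 1.67 CPM in the controls and between 9.4 and 12.3 CPM in the knockouts, with *Myl7* at 0 counts in every control mouse. Of 16330 genes tested, 16 passed an adjusted p below 0.05, which is 0.098% of them. Among the 16 were 3 of the heart muscle genes, *Myh6*, *Actc1* and *Tnnt2* (edgeR quasi-likelihood test, adjusted p = 0.000629, 0.0223 and 0.0338).

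The levels of the members spanned a wide range, from a few very abundant mRNAs to 4 selenoprotein genes with under 10 counts in every mouse. The 31 genes together took between 0.244% and 0.263% of all counts in the 6 mice. That share was 0.245%, 0.254% and 0.251% in the control mice and 0.244%, 0.263% and 0.251% in the *Slc39a8*-NSKO mice, so the groups overlapped. Per kilobase of exon, a scale on which levels of different genes can be compared, the 27 tested members ran from 782 ± 52.4 CPM per kb (SD, n = 6 mice of both genotypes) for *Selenow* to 1.67 CPM per kb for *Txnrd3*, a 469-fold range. The 5 highest, *Selenow*, *Selenom*, *Gpx4*, *Selenop* and *Selenot*, held 61.9% of the members' counts, and *Selenow* alone held 22.8%. When the length of the longest transcript was used in place of all exons, 4 of these 5 stayed among the highest, and *Selenof* took the place of *Selenot*. Of the 26 pairs of neighbours in this order, 13 had separate values in the 6 mice and 13 overlapped.

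**Figure D2:**
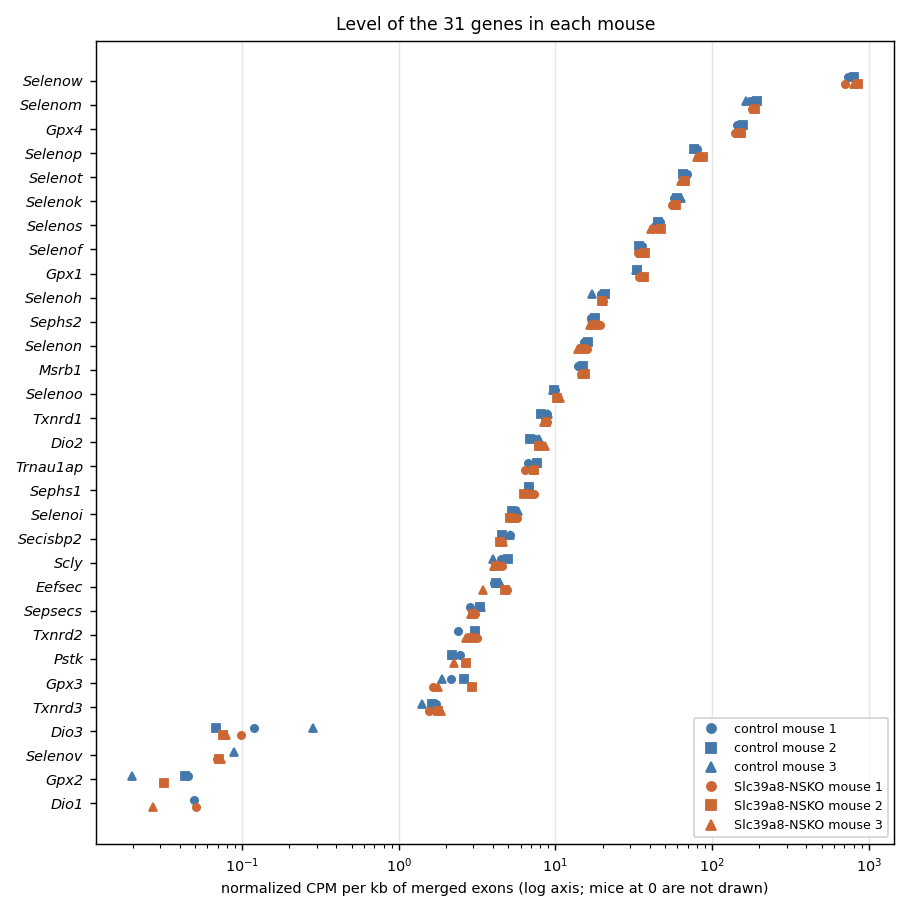
Levels of the members in CPM per kilobase of exon, on a log axis, with 1 point per mouse, control and *Slc39a8*-NSKO mice in different colours, and genes in order of their mean. Mice at 0 counts are not drawn. *Selenow* stands highest at 782 CPM per kb, and *Gpx2*, *Dio1*, *Dio3* and *Selenov* lie at the foot of the plot, at 0.121 CPM per kb or less.

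No member passed the test between the knockout and the control cerebella. Of the 27 members tested, 0 passed the threshold (edgeR quasi-likelihood test, Benjamini-Hochberg adjustment over all 16330 genes, adjusted p from 0.926 to 0.999), against 0.098% of all genes, and 0 had an unadjusted p below 0.05, against 5.39% of all genes. DESeq2 and limma-voom also called 0 members at an adjusted p below 0.05. The log2 fold changes of *Slc39a8*-NSKO over control ran from −0.12 to 0.14, with 16 above 0 and 11 below 0, and their median was 0.023 beside a median of 0.001 over all genes tested. These intervals were narrow enough to bound the differences. The 95% interval lay inside a 1.5-fold change in either direction for all 27 members, against 73.8% of all genes tested. It lay inside a 1.2-fold change for 18 of them (66.7%), against 44.1% of all genes. Among the 19 tested partner genes described below, these shares were 94.7% and 68.4%. Such narrow intervals were therefore not particular to the members. In bulk tissue, fewer cells of a type and less RNA per cell cannot be told apart.

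**Figure D3:**
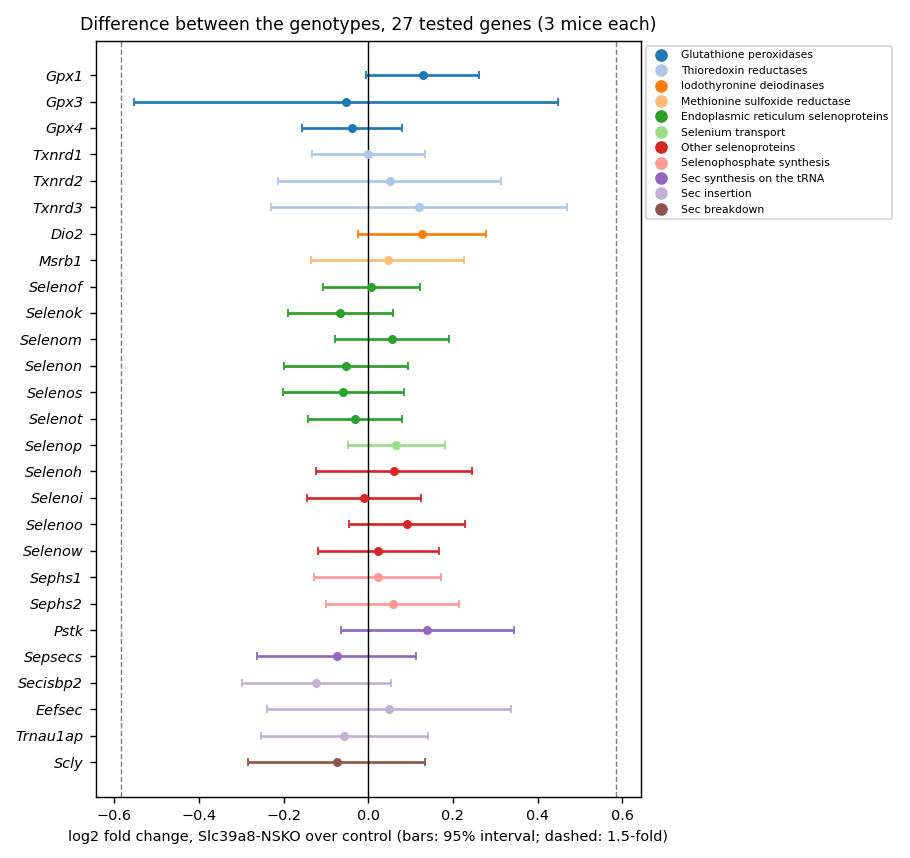
Log2 fold change of *Slc39a8*-NSKO over control mice for the 27 tested members, grouped by role, with points at the edgeR estimates and bars for 95% intervals (3 mice per genotype). Dashed lines mark a 1.5-fold change. Every bar lies between the dashed lines, the widest is that of *Gpx3*, and each bar includes 0.

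Among the glutathione peroxidases, which reduce peroxides at the expense of glutathione, *Gpx1* came closest to a difference. *Gpx1*, the cytosolic enzyme, whose mRNA is among the first to fall when selenium is short, measured 46.8, 48.1 and 47.1 CPM in the control mice and 49.2, 53.3 and 52.6 CPM in the *Slc39a8*-NSKO mice. Every knockout mouse was higher than every control mouse. The means were 47.3 ± 0.648 CPM (SD, n = 3) and 51.7 ± 2.21 CPM (SD, n = 3), a log2 difference of 0.13 whose 95% interval ran from −0.005 to 0.26 (edgeR quasi-likelihood test, adjusted p = 0.926). The sum of 4 microglia markers, none of them at 0, was also higher in each knockout mouse. It lay at 59.5 to 65.5 CPM in the controls and 70.0 to 74.1 CPM in the knockouts. Of the 4, only *Csf1r* had groups that did not overlap, while *Cx3cr1*, *P2ry12* and *C1qa* overlapped. Choroid plexus markers summed to between 760 and 1100 CPM in the controls and between 891 and 1540 CPM in the knockouts, again with none of 4 at 0. Most of that sum was *Ttr*, while *Folr1* measured 2.65, 2.36 and 1.99 CPM in the controls and 4.06, 5.8 and 3.88 CPM in the knockouts without overlap, and 3 of the 4 markers had an unadjusted p below 0.05. Marker sums of Purkinje cells, granule cells, Bergmann glia and astrocytes, oligodendrocytes, endothelial cells and erythroid cells overlapped between the genotypes. The part of any of these cells in the *Gpx1* values was not tested.

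*Gpx4*, which repairs lipid peroxides in membranes, measured 248, 273 and 258 CPM in the control mice and 244, 263 and 251 CPM in the knockout mice. The groups overlapped, and the log2 difference was −0.04 with a 95% interval from −0.16 to 0.08. Per kilobase of exon, the level of *Gpx4* was between 3.99 and 4.74 times that of *Gpx1* in each mouse. Per kilobase of the longest transcript, the means over all mice were 257 CPM for *Gpx4* and 46.2 CPM for *Gpx1*, so the size of this ratio depends on the transcript assumed. *Gpx3*, the secreted plasma enzyme, was low, at 3.0 to 5.34 CPM over the 6 mice, and its interval was the widest among the members, from −0.55 to 0.45 on the log2 scale. *Gpx2*, the enzyme of the gut epithelium, had 3, 2 and 1 counts in the controls and 2, 2 and 0 in the knockouts, too few to compare. A count of 0 allows up to 3 counts in that library by counting error alone.

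The thioredoxin reductases, which keep thioredoxin reduced, overlapped between the genotypes in all 3 genes. *Txnrd1*, the cytosolic enzyme, had the estimate closest to 0 among the members, with a 95% interval from −0.13 to 0.13 on the log2 scale and values from 57.5 to 63.9 CPM over both genotypes. It was also the highest of the 3 genes per kilobase of exon, between 2.66 and 3.74 times the level of the mitochondrial *Txnrd2* and between 4.58 and 6.42 times that of *Txnrd3*, a gene known mainly from testis. With the length of the longest transcript these ratios were 3.4 to 4.77 and 8.96 to 12.6, so their size depends on the transcript assumed. The log2 differences of *Txnrd2* and *Txnrd3* were 0.05 and 0.12, and the interval of *Txnrd3* ran from −0.23 to 0.47.

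Of the iodothyronine deiodinases, which activate or inactivate thyroid hormone, the cerebellum expressed *Dio2*, the activating enzyme of astrocytes, at 40.3 to 49.8 CPM. The log2 difference of *Dio2* was 0.13, with a 95% interval from −0.03 to 0.28 and overlapping groups (edgeR quasi-likelihood test, adjusted p = 0.974). The 4 markers of Bergmann glia and astrocytes summed to between 1640 and 1880 CPM in the controls and between 1870 and 1940 CPM in the knockouts, with none at 0. Most of that sum was *Slc1a3*, whose groups overlapped, as did those of *Gdf10* and *Aldh1l1*. Only *Aqp4* had groups apart, at 359 to 430 CPM in the controls and 440 to 489 CPM in the knockouts. The part of these cells in the *Dio2* values was not tested. *Dio3*, the inactivating enzyme, had 5, 2 and 9 counts in the controls and 4, 3 and 3 in the knockouts, and *Dio1*, the enzyme of liver and kidney, had 2, 0 and 0 against 2, 0 and 1. In each mouse the level of *Dio2* per kilobase of exon was at least 27.6 times that of *Dio3*, a value set by control 3 with its 9 *Dio3* counts, and at least 62.1 times in the other 5 mice. *Msrb1*, which reduces oxidised methionine in proteins, lay between 17.5 and 19.6 CPM in the 6 mice, with a log2 difference of 0.05.

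The 6 selenoproteins of the endoplasmic reticulum included 2 of the most abundant members. *Selenom*, a thioredoxin-like protein known for high expression in brain, measured 258, 289 and 243 CPM in the control mice and 266, 280 and 276 CPM in the knockout mice. *Selenot*, another thioredoxin-like protein of this group, measured 237, 223 and 234 CPM in the controls and 232, 230 and 218 CPM in the knockouts. Both genes overlapped between the genotypes, and *Selenot* was the steadiest member, with a ratio of 1.09 between its highest and lowest mouse. The log2 differences of the 6 genes ran from −0.07 for *Selenok* to 0.06 for *Selenom*, with 2 above 0 and 4 below. *Selenok* and *Selenos* act in the removal of misfolded proteins, *Selenof* binds the glucosyltransferase that checks glycoprotein folding, and *Selenon* is the selenoprotein whose loss causes a congenital myopathy. For all 6 the 95% interval lay inside a 1.2-fold change.

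*Selenop*, the selenium carrier, measured 229, 218 and 226 CPM in the control mice and 230, 248 and 227 CPM in the knockout mice. The highest control mouse lay above the lowest knockout mouse, and the log2 difference was 0.07 with a 95% interval from −0.05 to 0.18. Its level per kilobase of exon was between 15.3 and 20.9 times that of *Scly*, the enzyme that frees selenium from Sec for new use. This ratio also depends on the transcript assumed. Per kilobase of the longest transcript, the means over all mice were 110 CPM for *Selenop* and 8.66 CPM for *Scly*. *Scly* itself had a log2 difference of −0.07.

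*Selenow*, a small redox protein that is prominent in muscle and brain, measured 544, 590 and 577 CPM in the control mice and 520, 630 and 590 CPM in the knockout mice. The knockout mice held both the lowest and the highest of the 6 values, and the log2 difference was 0.02 with a 95% interval from −0.12 to 0.17. *Selenoh*, a nuclear protein, measured 22.0, 23.6 and 19.5 CPM in the controls and 22.8, 22.3 and 22.7 CPM in the knockouts, with a log2 difference of 0.06 and an interval from −0.12 to 0.25. For the mRNAs known to fall when selenium is short, *Gpx1*, *Selenow* and *Selenoh*, 0 of 3 passed the threshold. All 3 estimates were above 0, as were those of 8243 of the 16330 genes tested, but that of *Selenow* was −0.008 without control 1 and −0.039 without knockout 2, and that of *Selenoh* was −0.006 without control 3. The lower ends of the 95% intervals, expressed as percent change, were −0.329% for *Gpx1*, −7.93% for *Selenow* and −8.21% for *Selenoh*.

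*Selenoo*, a mitochondrial enzyme that attaches AMP to proteins, was the other member whose groups did not overlap. It measured 37.2, 36.9 and 35.9 CPM in the control mice and 38.8, 38.3 and 40.0 CPM in the knockout mice, with a log2 difference of 0.09 and a 95% interval from −0.05 to 0.23 (edgeR quasi-likelihood test, adjusted p = 0.994). In total, 2 of the 27 tested members were higher in every knockout mouse, where 5.08% of all genes tested were, and 0 were lower in every knockout mouse, where 5.26% of all genes were. *Selenoi*, the ethanolamine phosphotransferase of phospholipid synthesis, lay between 67.2 and 75.4 CPM with a log2 difference of −0.01. *Selenov*, a testis gene, had 0, 0 and 2 counts in the controls and 2, 2 and 2 in the knockouts.

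**Figure D4:**
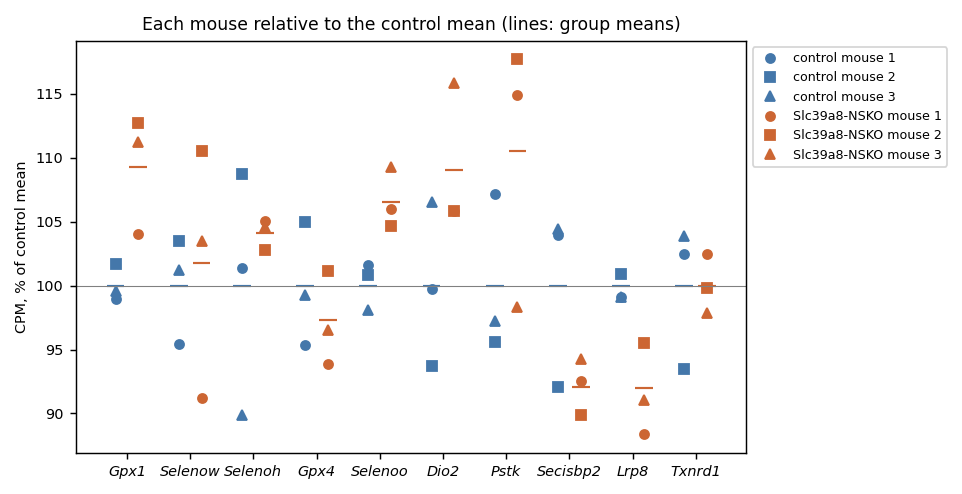
Levels in each of the 6 mice as a percent of the control mean for *Gpx1*, *Selenow*, *Selenoh*, *Gpx4*, *Selenoo*, *Dio2*, *Pstk*, *Secisbp2*, *Lrp8* and *Txnrd1*, with 1 point per mouse on a scale of percent and the 3 control and 3 *Slc39a8*-NSKO mice in different colours. The genotypes are apart in *Gpx1* and *Selenoo*, higher in the knockouts, and in *Lrp8*, lower in them, and they overlap in the other genes drawn.

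The genes that make Sec did not pass the threshold either. Selenophosphate, the selenium donor, is made by SEPHS2, itself a selenoprotein, whose gene lay between 36.1 and 42.2 CPM with a log2 difference of 0.06. Its relative without Sec, *Sephs1*, which does not make selenophosphate, had a log2 difference of 0.02, and its level per kilobase of exon was between 0.353 and 0.42 times that of *Sephs2*. Per kilobase of the longest transcript, the means over all mice were 7.57 CPM for *Sephs1* and 17.6 CPM for *Sephs2*. PSTK phosphorylates the serine carried by the Sec tRNA and SEPSECS turns it into Sec. *Pstk* had the highest estimate among the members, a log2 difference of 0.14 with a 95% interval from −0.06 to 0.34, and *Sepsecs* had −0.07.

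At the insertion step, *Secisbp2*, which encodes the SECIS-binding protein, had the lowest estimate among the members, −0.12 on the log2 scale with a 95% interval from −0.30 to 0.05. *Eefsec*, the elongation factor of the Sec tRNA, had a log2 difference of 0.05, and *Trnau1ap*, a protein bound to that tRNA, had −0.06. The 7 genes without Sec, *Scly* among them, had 3 estimates above 0 and 4 below, with a median of −0.056, while the 20 tested selenoprotein genes had 13 above 0 and 7 below, with a median of 0.035. The difference between these medians was not tested.

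The members were also read by the place of the Sec codon. The 11 tested genes whose first Sec codon lay more than 55 bases upstream of the last exon junction had a median log2 difference of 0.024, from −0.05 to 0.13. The 9 others tested had a median of 0.046, from −0.07 to 0.13. The 2 ranges nearly coincided, and 0 genes of either placement passed the threshold.

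The mice differed little from each other in most of these genes. The ratio of the highest to the lowest of the 6 mice had a median of 1.17 over the tested members and stayed below 1.2 in 18 of 27, with its maximum of 1.78 in *Gpx3*. Counts were not whole in 7 members, among them *Gpx4*, *Selenop*, *Selenoo* and *Pstk*, since expected counts divide some reads among features. A further limit is that 13 members overlap another annotated gene, such as *Selenop* with *Ccdc152* on the opposite strand, *Selenoo* with *Tubgcp6* and *Selenoh* with *Gm28635* on its own strand, and the strand setting of the counting is not given in the sources used here, so reads from such neighbours cannot be told apart.

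Genes that work beside the selenoproteins were read from a list of 23, of which 19 could be tested. Of these, 0 passed the threshold, against 0.098% of all genes, and 1, *Lrp8*, had an unadjusted p below 0.05, against 5.39% of all genes. *Lrp8*, the receptor through which neurons take up selenoprotein P, measured 111, 113 and 111 CPM in the control mice and 99.0, 107 and 102 CPM in the knockout mice, so that every knockout mouse lay below every control mouse. Its unadjusted p was above 0.05 with library size alone, with no filter, with DESeq2 and in 5 of the 6 fits without a mouse. Its log2 difference was −0.12, with a 95% interval from −0.235 to −0.003 (edgeR quasi-likelihood test, adjusted p = 0.908). In total 3 of the 19 partners were lower in every knockout mouse, *Lrp8*, *Eif4a3*, an RNA helicase that binds some SECIS elements, and *Selenbp1*, a selenium-binding protein without Sec, against 5.26% of all genes, and 0 were higher in every knockout mouse. *Lrp2*, the kidney receptor of selenoprotein P, was too low to test.

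Among the other partners, *Sars*, the enzyme that charges the Sec tRNA with serine, had a log2 difference of 0.004 with a 95% interval from −0.11 to 0.12, and *Trit1*, which modifies that tRNA, had 0.17 with an interval from −0.13 to 0.46. *Gpx8* and *Msrb3*, relatives without Sec, had −0.01 and 0.05. *Txn1*, thioredoxin itself, had −0.03, and *Gsr*, glutathione reductase, had 0.03. Of the 19 partners, 7 estimates were above 0 and 12 below, with a median of −0.013.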

How the data were processed

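RNA-Seq of the cerebellum was analysed in 3 control and 3 *Slc39a8*-NSKO mice. Per the labels and methods, the authors made oligo-dT cDNA, sequenced it as paired-end reads and aligned these with STAR to an Ensembl reference. The submitters' processing notes also name RSEM, FastQC, DESeq2 and mm10, with no versions used here. The values deposited by the authors are expected counts per gene, not normalized for library size or gene length. All sample columns were used. The 92 spike-in entries were left out.

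Expected counts were rounded and tested in R 4.3.3 with the quasi-likelihood test of edgeR 4.0.16 (TMM normalization, filterByExpr, no covariate), with Benjamini-Hochberg adjustment over 16330 genes and a threshold of 0.05. The standard error is the log2 fold change divided by the square root of F, and 95% intervals use the total degrees of freedom. CPM per kilobase used the merged exons of GENCODE M21 (GRCm38), in which all 31 members had the identifier version of the table. Sec codons and their coding sequences came from the same release. DESeq2 1.42.0, limma-voom (limma 3.58.1), 2 other scalings, 2 other filters, a replicate block and leaving out each mouse were alternatives. The test was checked on simulated data. Total counts were 14431260 to 20844267 per mouse.

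The members and lists were chosen with earlier results of these data known. Each mouse's value is given for members past the threshold or with an unadjusted p below 0.05, the 5 highest per length, *Gpx1*, *Selenow* and *Selenoh*, and members under 10 counts in every mouse; others are given by level, range or fold change. *Selenoo*, *Eif4a3*, *Selenbp1* and the remaining genes of the plot by mouse were picked once their values were known. The sources describe the samples both as technical triplicates and as 3 mice per genotype. The samples were treated as mice, and otherwise p-values measure technical spread only.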

Additional observations from a re-analysis of the deposited data

How the results depend on the processing

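The count of members past the threshold stayed at 0 under all 13 alternatives, with adjusted p of 0.634 or more for the members. The count of partner genes past the threshold also stayed at 0, and the median log2 difference of the members stayed between 0.002 and 0.046. Over all genes, the number past the threshold was 178 with no filter on low counts, 37 with DESeq2 and 47 with the replicate block, and ran from 9 without *Slc39a8*-NSKO replicate 2 to 38 without control replicate 1. Same-numbered samples had correlations of 0.142, 0.116 and 0.0104, and not every sample correlated best with its own number, so the numbers were not taken to pair mice. With the replicate block the unadjusted p of *Gpx1* fell below 0.05 (edgeR, adjusted p = 0.672), and the block changed no call among the members. The number of members whose groups did not overlap rose from 2 to between 3 and 7 when a mouse was left out, a setting chosen after seeing the data. It was 7 of 27 (25.9%, against 25.6% of all genes tested) without control 1, 6 (22.2%, against 18.3%) without control 2, 3 (11.1%, against 19.1%) without control 3, 5 (18.5%, against 20.6%) without knockout 1, 5 (18.5%, against 19.0%) without knockout 2 and 6 (22.2%, against 19.5%) without knockout 3. Of 351 values of single members under the alternatives, 331 kept their sign and 20 did not, each with a mouse left out. The ranges over the left-out mice were −0.358 to 0.105 for *Gpx3*, −0.044 to 0.03 for *Txnrd1*, −0.067 to 0.113 for *Txnrd2*, −0.027 to 0.042 for *Selenof*, −0.102 to 0.0 for *Selenon*, −0.006 to 0.121 for *Selenoh*, −0.047 to 0.03 for *Selenoi*, −0.039 to 0.099 for *Selenow*, −0.021 to 0.078 for *Sephs1*, −0.041 to 0.194 for *Eefsec*, −0.112 to 0.008 for *Trnau1ap* and −0.15 to 0.003 for *Scly*, and no value of a member shifted by more than 1.32 standard errors. Unadjusted p fell below 0.05 for *Gpx1* without knockout 1, *Selenom* without control 2, *Dio2* without control 3 and *Pstk* without knockout 3. The 3 mice per genotype and the depth limit what can be seen to changes outside the intervals given, and the 4 members under 10 counts cannot be compared.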
